A study of Mus musculus with 7 samples.

Results

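The genes for the subunits of sodium, calcium and potassium channels were followed in E16 mouse retina. They were taken by symbol, as names that open with Scn and a digit, with Cacna, Cacnb or Cacng and a digit, or with Kcn, letters and a digit, and they had to reach 70 raw counts summed over 7 libraries. The pattern matched 138 of the 48440 listed genes, and 122 reached the minimum: 13 for sodium, 25 for calcium and 84 for potassium channels. They were thus chosen by name and by their total counts over all libraries, so their levels are a description, while the difference between genotypes was not used. Just above the minimum were *Kcnj16* with 74 counts, *Kcng3* with 81, and *Kcnn4* and *Scn4b* with 87 each, and just below it were *Kcne4* with 67 and *Kcnk9* with 65. The pattern also takes channels that voltage does not gate, such as the inward rectifiers, the tandem-pore channels and the small calcium-activated channels, and 3 non-coding RNAs (*Kcnd3os*, *Kcnmb4os2* and *Kcnq1ot1*).

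Bulk RNA-seq was measured on pools of whole retina, with 1 wildtype (WT) library, 3 heterozygous (Het) libraries and 3 homozygous mutant (KO) libraries. The WT genotype was Chx10Cre, the Het genotype Chx10-Cre;Ptbp1lox/WT and the KO genotype Chx10-Cre;Ptbp1lox/lox, so that Cre was carried by every group. Chx10-Cre expresses a fusion of Cre and GFP in retinal progenitors, and the floxed allele loses the promoter and the first exon of *Ptbp1*, which codes for an RNA-binding splicing repressor. A library held 4 to 6 pooled retinas, so the p-values measure the spread between these pools, and WT, with 1 library, has no error. The depth was 120593979 to 171117305 counts per library, and *Ptbp1* itself was at 381 CPM (the count relative to the TMM-scaled library total) in WT, 210, 219 and 234 CPM in Het and 27.9, 6.04 and 46.9 CPM in KO.

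Voltage-gated channels open when the membrane is depolarized. Sodium channels carry the rise of the action potential, and potassium channels of the Kv families end it. Calcium channels turn a voltage change into calcium entry, which triggers transmitter release. The pore-forming subunit is joined by accessory subunits that alter its gating or its delivery to the membrane, and silent Kv subunits form no channel alone but alter the Kv channels they join. In the retina, ganglion cells fire action potentials, while photoreceptors signal with graded potentials, and use the silent subunit Kcnv2 and, at the ribbon synapse, the L-type calcium channel Cacna1f.

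The promoters of 4 of these genes are shown, because *Kcna5* and *Kcna6* are close neighbours that both rose, *Kcng4* fell and *Cacna1f* is the photoreceptor calcium channel. Each is a window of 300 bases around the start from RefSeq (build GRCm38.p6), most of it upstream, read 5′ to 3′ on the strand of the gene. Capitals mark TAATCC, the core that the photoreceptor factors Crx and Otx2 bind.
*Kcna5* promoter, chr6:126535506-126535805, minus strand: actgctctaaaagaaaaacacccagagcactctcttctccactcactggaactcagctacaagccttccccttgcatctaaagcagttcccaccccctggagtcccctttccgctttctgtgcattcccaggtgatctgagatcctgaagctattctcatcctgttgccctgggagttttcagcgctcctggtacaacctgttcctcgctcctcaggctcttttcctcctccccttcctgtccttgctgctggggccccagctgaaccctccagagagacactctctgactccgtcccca
*Kcna6* promoter, chr6:126740625-126740924, minus strand: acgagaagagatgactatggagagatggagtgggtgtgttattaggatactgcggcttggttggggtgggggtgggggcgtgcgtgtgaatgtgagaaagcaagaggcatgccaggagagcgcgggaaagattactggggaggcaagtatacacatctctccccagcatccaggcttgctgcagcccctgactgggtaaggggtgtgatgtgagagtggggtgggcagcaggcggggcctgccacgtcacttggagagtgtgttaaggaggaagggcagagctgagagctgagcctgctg
*Kcng4* promoter, chr8:119635631-119635930, minus strand: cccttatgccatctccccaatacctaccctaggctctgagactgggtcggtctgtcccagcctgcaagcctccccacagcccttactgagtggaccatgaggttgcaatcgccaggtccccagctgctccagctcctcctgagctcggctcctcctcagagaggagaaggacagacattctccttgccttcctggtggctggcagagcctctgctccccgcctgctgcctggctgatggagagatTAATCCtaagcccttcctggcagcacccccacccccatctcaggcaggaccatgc
*Cacna1f* promoter, chrX:7606853-7607152, plus strand: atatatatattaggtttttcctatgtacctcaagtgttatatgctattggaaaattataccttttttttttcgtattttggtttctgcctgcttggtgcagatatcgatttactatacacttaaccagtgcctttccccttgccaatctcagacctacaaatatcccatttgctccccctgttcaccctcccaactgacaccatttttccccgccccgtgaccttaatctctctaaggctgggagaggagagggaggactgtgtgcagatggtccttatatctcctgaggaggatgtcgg

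The table of promoters held an entry for 88 of the 122 genes. TAATCC, or GGATTA on the other strand, was found in 6 of their 123 promoters (4.88%), against 7.06% of all 32851 promoters. Among the 23 differentially expressed genes it was found in *Kcng4* alone, while *Kcna1* and *Kcnv2* had no entry. TATAAA, or TTTATA on the other strand, was in 5.69% of the channel promoters and in 13.6% of all promoters. These shares describe the windows and their letters.

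The levels covered a wide range at E16. Per kilobase of exon, *Cacng4*, which codes for a subunit that carries AMPA receptors to the membrane (a TARP), had the highest mean over the 7 libraries, at 93.0 CPM per kb. It was followed by *Cacnb3*, a calcium channel beta subunit, at 45.4 CPM per kb, *Kcne1l* at 19.6, *Scn3b*, a sodium channel beta subunit, at 16.9, and *Cacna1b*, the pore of the N-type calcium channel, at 15.6. The genes with the highest level in other classes were *Kcnk1* at 11.0 CPM per kb, *Kcnd3* at 10.3, *Kcnh2* at 9.36, *Cacna1h* at 7.0, *Cacna2d2* at 4.57, *Kcnn1* at 4.31, *Scn3a* at 2.91, *Kcnj10* at 2.45, *Kcns2* at 2.02, *Cacna1d* at 2.01 and *Kcnmb4os2* at 1.57. *Scn3a* codes for the sodium channel pore typical of embryonic neurons. At the other end, 33 of the 122 genes had a mean under 1 CPM, where the Het libraries varied by 25.4% (median CV) and the KO libraries by 24.4%, against 5.18% and 9.34% for the 89 genes above it.

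**Figure D1:**
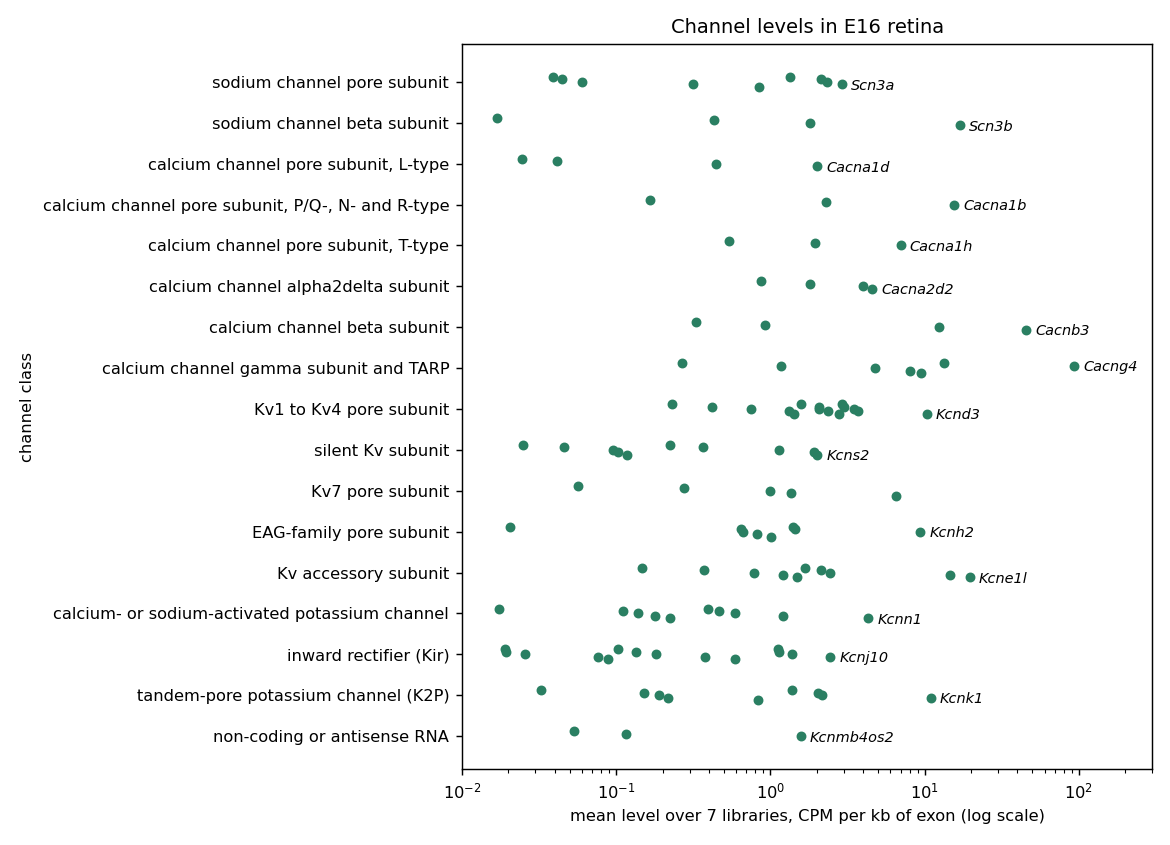
Mean level of each of the 122 channel genes over the 7 libraries, in CPM per kilobase of exon on a log axis, with 1 row per channel class and 1 point per gene. The gene with the highest level is named in all rows but Kv7, from *Cacng4* at 93.0 CPM per kb down to *Kcnmb4os2* at 1.57.

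KO was then compared with Het, to ask which channel genes change when the second copy of *Ptbp1* is lost. A gene was called differentially expressed at an adjusted p under 0.05 by the edgeR quasi-likelihood test (Benjamini-Hochberg over all 20019 genes tested) and a change of more than 1.2-fold in either direction. Of the 122 genes, which were all tested, 23 (18.9%) were called, against 7.22% of all genes. Higher in KO were 20 genes (16.4%, against 4.01% of all genes) and lower were 3 (2.46%, against 3.21%). All KO libraries lay above all Het libraries for 45 genes (36.9%, against 18.6% of all genes) and below them for 12 (9.84%, against 17.7%), and the groups did not overlap in either direction for 36.3% of all genes. The log2 fold change was positive for 76 genes (62.3%, against 49% of all genes). The median log2 fold change was 0.14, beside -0.0047 over all genes. Because the group was chosen with earlier results of these data known, the shares above describe it and are no independent test. The 23 genes had a median level of 17.3 CPM, the 122 genes one of 5.18 CPM and all genes tested one of 10.2 CPM, and only *Kcng4* was called among the 33 genes under 1 CPM. In a bulk measurement, fewer or more cells of a type and less or more RNA per cell cannot be told apart.

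**Figure D2:**
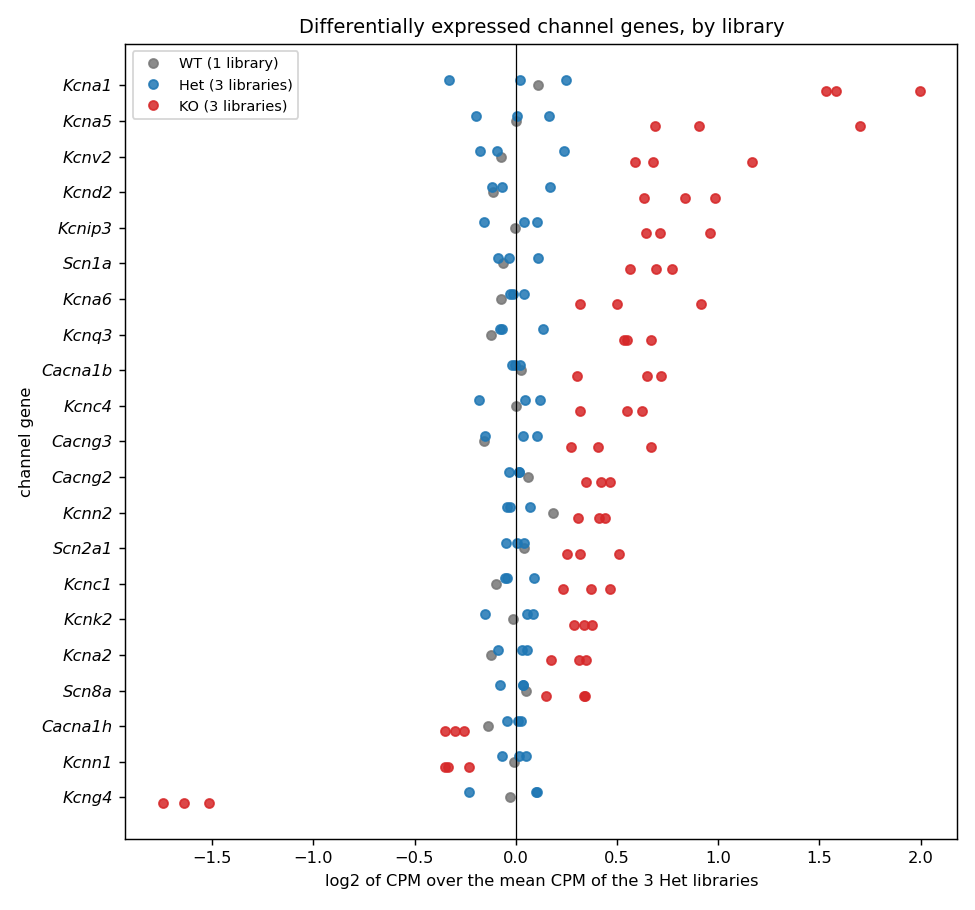
Of the 23 differentially expressed channel genes, 21 with 1 row each, with a point for each library at the log2 of its CPM over the mean of the 3 Het libraries (0 is the Het mean; WT grey, Het blue, KO red). The KO points lie left of every Het point for *Cacna1h*, *Kcnn1* and *Kcng4* and right of them in the other rows, and the WT point lies nearer to Het than to KO in each row.

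The WT library stood with Het in these genes. It was below all KO libraries for the 20 genes that were higher, and above them for the 3 that were lower. Of the 20, it lay within the Het range for 10, above it for 5 and below it for 5. The KO libraries did not move alike: among the 20 genes the level was highest in KO1 for 10, in KO2 for 9 and in KO3 for 1, and it was lowest in KO3 for 11.

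The number of calls depended on the libraries in the fit. When Het1 was left out, 18 of the 122 genes were called, beside 6.23% of all genes. Leaving out Het2 gave 6 (1.93% of all genes) and leaving out Het3 gave 8 (2.49%). Leaving out KO1 gave 17 (6.12%), KO2 9 (3.06%) and KO3 26 (8.39%). *Kcna1*, *Kcng4*, *Cacng2*, *Cacna1h* and *Kcnq3* were called in all 6 of these fits. Most of the others lost the call in at least 1 of them, and the called genes named here kept their direction in every fit. With all libraries, DESeq2 called 31 (11.6% of all genes), and glmTreat, which tests against the fold limit itself, 2 (1.08%). RLE scaling gave 22 (7.28%), upper-quartile scaling 23 (7.29%), no filter 20 (4.51%), a minimum of 10 counts in every library 24 (9.14%), a fit of Het and KO by themselves 24 (8.38%), the same with the replicate number as a block 20 (6.88%) and adjusted p alone 26 (11.1%).

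The Kv1 to Kv4 pore subunits, which form the delayed rectifiers and the transient potassium channels, held the most calls of any class here. Of the 15, 9 rose and none fell, beside 4.01% and 3.21% of all genes, with a median log2 fold change of 0.36. KO lay above Het in 11 of the 15, beside 18.6% of all genes. Among the called genes of this class that are described below, only *Kcna1* was called in all 6 fits with 1 library left out. Of the 6 Kv1 genes 4 rose, and of the 3 Kv4 genes 1.

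*Kcna1*, a pore subunit of low-threshold axonal potassium channels, was at 0.599 CPM in WT, at 0.659, 0.562 and 0.442 CPM in Het and at 2.21, 1.6 and 1.66 CPM in KO. All KO libraries were well above the other 4. The KO mean was 3.29 times the Het mean (1.82 ± 0.34 against 0.554 ± 0.11 CPM; SD over 3 libraries, as for all means here), or 1.72 ± 0.21 (SE) on the log2 scale, with an edgeR adjusted p of 0.0082. *Kcna5*, a Kv1 subunit known from heart and smooth muscle, was at 6.95 CPM in WT, at 7.78, 6.98 and 6.05 CPM in Het and at 22.6, 11.2 and 13.0 CPM in KO. KO1 was far above the other KO libraries, and all 3 were above Het. Its log2 fold change was 1.17 ± 0.27, and its edgeR adjusted p of 0.0399 became 0.0643, 0.127 and 0.131 when Het1, Het2 or Het3 was left out, and 0.0519 when KO2 was. *Kcna6* was at 13.6 CPM in WT, at 14.6, 14.1 and 14.0 CPM in Het and at 26.8, 20.2 and 17.7 CPM in KO. The groups did not overlap, and KO1 was again highest. Its log2 fold change was 0.60 ± 0.15 (edgeR adjusted p = 0.0468), and the call was lost in the fits lacking Het1, Het2, Het3 or KO2, with adjusted p from 0.0837 to 0.141. *Kcna2*, the usual partner of *Kcna1* along axons, rose less, from 22.6 ± 1.2 CPM in Het to 27.5 ± 1.7 CPM in KO (edgeR adjusted p = 0.0379), and it kept the call only without KO3 among the fits with 1 library left out.

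*Kcna5*, *Kcna1* and *Kcna6* lie in a row on the minus strand, at chr6:126532551-126535412, chr6:126640397-126646384 and chr6:126708329-126740674 of GRCm38, within a stretch of 208124 bases. The next protein-coding gene tested, *Ndufa9*, had a log2 fold change of -0.036 ± 0.048 and was not called. Of the 100 tested genes around each of the 3, which include the other genes of the cluster, 8 were called, or 6 higher and 2 lower. Over all genes, 7.22% were called, or 4.01% higher and 3.21% lower. In the other Kv1 cluster, on chromosome 3 (107036169 to 107195721), *Kcna2* rose, *Kcna3* had a log2 fold change of 0.21 and was not called (adjusted p = 0.346), and *Kcna10* had too few counts to be tested. An exon of *Kcna6* overlaps the antisense gene *Gm26673*, and how the counting used strand is not given in the sources used here.

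Channels of the Kv3 family let neurons fire fast. *Kcnc4* rose from 8.69 ± 0.93 to 12.3 ± 1.3 CPM and *Kcnc1* from 25.4 ± 1.5 to 32.6 ± 2.6 CPM (edgeR adjusted p = 0.0382 and 0.0263), with no overlap of the groups, but both lost the call without Het2, Het3, KO1 or KO2, where adjusted p was 0.0590 to 0.123. *Kcnc2* went from 23.4 to 26.5 CPM, and KO lay above Het in every library. It missed both limits, with a log2 fold change of 0.18, inside the fold limit, and an edgeR adjusted p of 0.086.

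Among the Kv4 genes, which give the transient A-type current, *Kcnd2* was at 7.53 CPM in WT, at 9.14, 7.74 and 7.49 CPM in Het and at 14.5, 16.1 and 12.6 CPM in KO. Each KO library was above each Het library, and the log2 fold change was 0.82 ± 0.12 (edgeR adjusted p = 0.0120; 0.0642 without Het2 and 0.0509 without Het3). *Kcnd3*, by level the main Kv4 gene at this age, was not called, at 102 ± 1.0 CPM in Het and 98.1 ± 4.6 CPM in KO (log2 fold change -0.05 ± 0.038). *Kcnip3*, a calcium-binding protein that joins Kv4 channels, was the only Kv accessory gene of 10 to rise: it was at 5.80 CPM in WT, at 6.25, 5.98 and 5.22 CPM in Het and at 11.3, 9.54 and 9.08 CPM in KO. Its log2 fold change was 0.78 ± 0.11 (edgeR adjusted p = 0.0122; 0.0613 without Het2), whereas the accessory gene with the highest level, *Kcne1l*, went from 30.3 to 31.2 CPM with overlap.

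Of the 5 Kv7 genes, *Kcnq3* rose. It codes for a subunit of the M-current channel, which restrains repeated firing, and was at 15.3 CPM in WT, at 15.9, 18.2 and 15.8 CPM in Het and at 24.1, 26.4 and 24.3 CPM in KO. The groups were clearly apart, with a log2 fold change of 0.59 ± 0.073 (edgeR adjusted p = 0.0083). None of the 8 EAG-family genes was called, and 5 of their log2 fold changes were positive. *Kcnh2*, the one with the highest level, was below Het in every KO library by a small step, from 46.9 ± 1.9 to 43.0 ± 1.5 CPM. Its log2 fold change of -0.12 was inside the fold limit (edgeR adjusted p = 0.104).

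The silent Kv subunits held the only fall among the genes under 1 CPM. *Kcng4* was at 0.619 CPM in WT, at 0.677, 0.537 and 0.679 CPM in Het and at 0.189, 0.220 and 0.203 CPM in KO. The KO libraries lay close together and far below the other 4, with a mean 0.323 times that of Het, a log2 fold change of -1.63 ± 0.19 and an edgeR adjusted p of 0.0071. Together with *Kcna1*, it was called under all 15 alternative settings. Among the other 9 silent subunits, *Kcnv2* rose, and KO lay above Het without a call in 5. In all, KO lay above Het in 6 of the 10 silent subunits, beside 18.6% of all genes. The 5 without a call were at low mean levels, from 0.0837 CPM for *Kcng3* to 1.68 CPM for *Kcnv1*.

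The photoreceptor channel *Kcnv2* rose. It was at 4.13 CPM in WT, at 5.12, 4.08 and 3.84 CPM in Het and at 9.76, 6.97 and 6.55 CPM in KO. Het1 was the highest Het library and KO1 the highest of all. The log2 fold change was 0.84 ± 0.19 with an edgeR adjusted p of 0.0370, which became 0.128 and 0.124 when Het2 or Het3 was left out, and 0.0538 and 0.0853 when KO1 or KO2 was.

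*Cacna1f* was at 0.262 CPM in WT, at 0.336, 0.277 and 0.211 CPM in Het and at 0.724, 0.410 and 0.428 CPM in KO. KO lay above Het in every library, but at this low level the log2 fold change of 0.92 ± 0.31 missed the threshold (edgeR adjusted p = 0.102). *Cacna2d4*, which codes for the alpha2delta subunit of that channel, overlapped between the groups (7.71 ± 1.3 CPM in Het, 8.59 ± 1.4 CPM in KO). *Cacnb2*, its beta subunit, was at 3.36, 4.72 and 5.27 CPM in Het and at 2.33, 2.86 and 6.54 CPM in KO. KO3 was the highest of all 7 libraries and KO1 and KO2 the lowest; the log2 fold change of -0.19 ± 0.40 was not called and turned to 0.081 without KO1.

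Lists of cell type markers, chosen with earlier results of these data known, were set beside these genes. The paper had reported from these libraries a rise of *Opn1sw* and *Rcvrn*, which the photoreceptor list holds. It also stained retinas from before and after the age of these libraries for HuC/D with NeuN, Otx2 and Opn1sw. By that staining the paper saw no clear change, and the number of Otx2-positive cells in newborn retina was not altered. From the libraries the paper had also reported changes of *Sfrp2* and *Hes5*, which the progenitor list holds. Of the 17 photoreceptor markers tested, 10 rose and none fell, beside 4.01% and 3.21% of all genes. Their median log2 fold change was 0.69. The summed level of the photoreceptor markers was 537 CPM in WT, 622 to 691 CPM in Het and 792 to 871 CPM in KO, with Het1 and KO1 the highest of their groups. Of 10 amacrine and horizontal cell markers 3 rose and none fell (538 to 572 CPM in Het, 665 to 715 CPM in KO). Of 12 ganglion cell markers 2 fell and none rose (3435 to 3588 CPM in Het, 2874 to 3270 CPM in KO), and of 10 progenitor markers 1 rose and 2 fell. No gene of these lists was at 0 in every library. The part of these lists in the channel results was not tested.

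**Figure D3:**
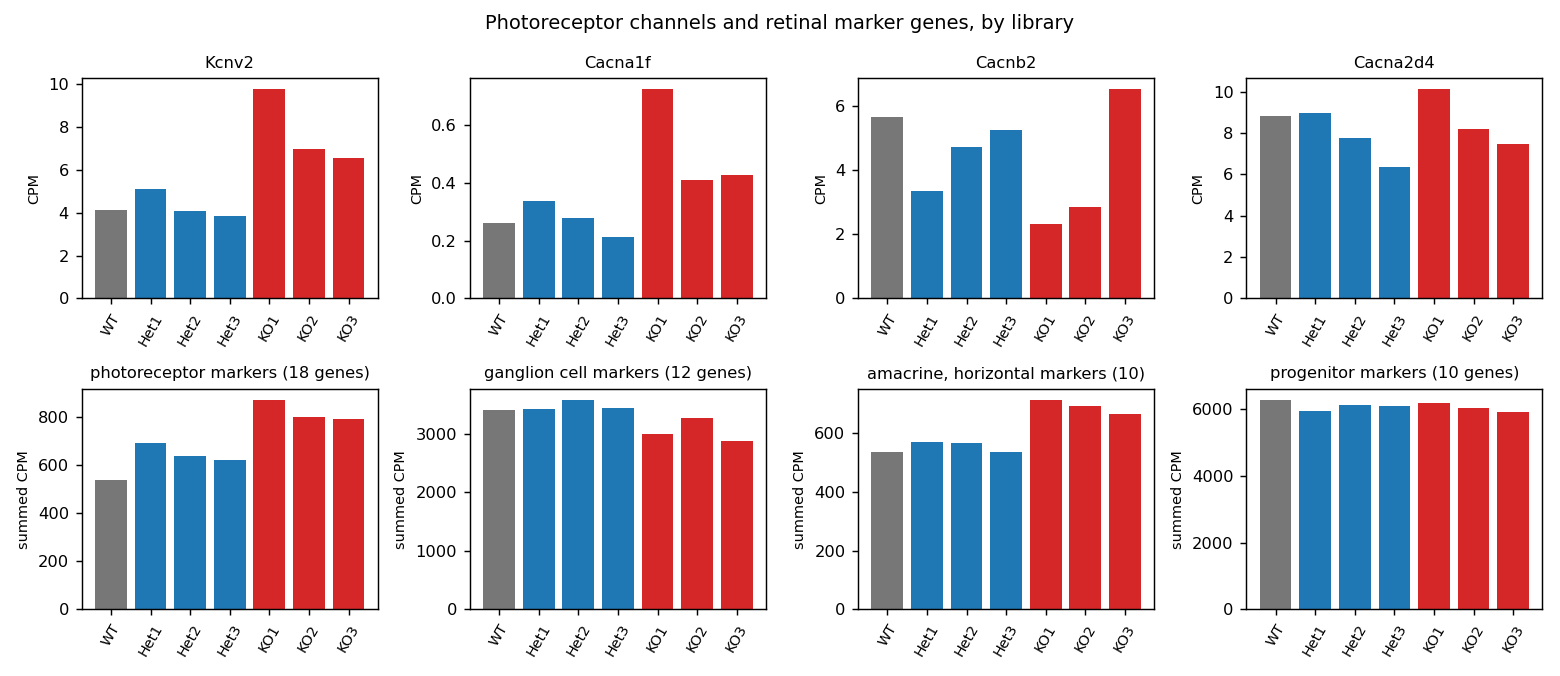
CPM in each of the 7 libraries for 4 photoreceptor channel genes, and the summed CPM of 4 retinal marker lists (WT grey, Het blue, KO red; each bar is 1 library). *Kcnv2*, *Cacna1f*, the photoreceptor markers and the amacrine and horizontal cell markers are above every Het library in every KO library, *Cacna2d4* and *Cacnb2* overlap, the ganglion cell markers are lower in KO, and the progenitor markers overlap.

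Among the sodium channels, 3 of 9 pore genes rose and none fell, and none of the 4 beta subunits was called. *Scn1a* was at 2.69 CPM in WT, at 2.65, 2.75 and 3.04 CPM in Het and at 4.16, 4.55 and 4.80 CPM in KO. The groups did not overlap, and the log2 fold change was 0.68 ± 0.10 (edgeR adjusted p = 0.0139; 0.0666 without Het2 and 0.0529 without KO2). *Scn2a1*, a pore of immature axons, was at 24.9 CPM in WT, at 24.9, 24.4 and 23.4 CPM in Het and at 28.9, 34.5 and 30.2 CPM in KO. Its log2 fold change was 0.36 ± 0.071 (edgeR adjusted p = 0.0257; 0.0946 without Het2 and 0.0952 without Het3). *Scn8a*, the pore of mature nodes of Ranvier, rose by a smaller step, from 19.3 ± 0.88 to 23.4 ± 1.7 CPM (edgeR adjusted p = 0.0474), and kept the call only without KO1 among the fits with 1 library left out. *Scn3a*, the pore with the highest level, went from 34.4 ± 0.48 to 38.3 ± 2.2 CPM. It was not called, with a log2 fold change of 0.15, inside the fold limit (edgeR adjusted p = 0.0747). *Scn3b* was at 94.8 ± 3.3 CPM in Het and 90.8 ± 5.4 CPM in KO with overlap.

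*Scn3a*, *Scn2a1*, *Scn1a*, *Scn9a* and *Scn7a* lie side by side on chromosome 2, from 65457118 to 66784914. Only *Scn2a1* and *Scn1a* were called there, and *Scn9a*, a pore known from sensory neurons, had a log2 fold change of -0.22 ± 0.11 (adjusted p = 0.233). Of the 100 tested genes around *Scn1a*, which include *Scn2a1*, 15 were called, 11 of them higher, beside 7.22% and 4.01% of all genes. Among the axonal channels described here, *Scn1a*, *Scn2a1*, *Scn8a*, *Kcna1*, *Kcna2* and *Kcnq3* thus rose, and *Scn3a* had no call.

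Of the 10 calcium channel pores, 1 rose and 1 fell. *Cacna1b*, which opens at nerve terminals to trigger release, was at 130 CPM in WT, at 130, 128 and 126 CPM in Het and at 201, 210 and 158 CPM in KO. The Het and WT libraries were nearly level, and KO3 rose less than the other KO libraries. The log2 fold change was 0.57 ± 0.10 (edgeR adjusted p = 0.0208), and adjusted p was 0.0873 without Het2, 0.0791 without Het3 and 0.0676 without KO2. The P/Q-type pore *Cacna1a* and the R-type pore *Cacna1e* also lay above Het in every KO library but were not called (edgeR adjusted p = 0.0684 and 0.113). Their log2 fold changes were 0.19, inside the fold limit, and 0.37, beyond it. None of the 4 L-type pores was called; *Cacna1d*, at the highest level among them, overlapped (23.6 ± 2.4 CPM in Het, 26.7 ± 4.4 CPM in KO).

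*Cacna1h*, a T-type pore that opens at low voltage, fell. It was at 68.6 CPM in WT, at 76.1, 76.9 and 73.3 CPM in Het and at 59.1, 63.2 and 61.2 CPM in KO. WT lay between the groups, and KO was below both. The log2 fold change was -0.30 ± 0.035 (edgeR adjusted p = 0.0070), close to the fold limit, and the gene was not called when the fold limit was part of the test (glmTreat). Around it on chromosome 17, 25 of the 100 nearest tested genes were called, 18 of them lower, beside 7.22% and 3.21% of all genes. That was the largest number around any of the 23 genes, against 3 to 15 around the others. An exon of *Cacna1h* also overlaps *Tpsg1* on the other strand. The other T-type pores were not called, with log2 fold changes of 0.14 for *Cacna1g* and 0.32 for *Cacna1i*.

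Among 15 accessory calcium channel genes, 2 of the 7 gamma subunits and TARPs rose, and none of the 4 alpha2delta or 4 beta subunits was called. *Cacng2*, or stargazin, a TARP of AMPA receptors, was at 23.9 CPM in WT, at 23.2, 23.2 and 22.4 CPM in Het and at 30.7, 31.6 and 29.2 CPM in KO. The groups were tight and apart, with a log2 fold change of 0.41 ± 0.044 and an edgeR adjusted p of 0.0062, the smallest of the 122 genes. *Cacng3*, also a TARP, went from 23.1 ± 2.1 to 31.7 ± 4.5 CPM (edgeR adjusted p = 0.0485) and kept the call only without KO3 among the fits with 1 library left out. The 2 genes with the highest level of all channels did not rise: *Cacng4* was at 350 ± 2.3 CPM in Het and 314 ± 22 CPM in KO, and *Cacnb3* at 190 ± 1.9 and 174 ± 13 CPM. Each was below Het in every KO library and neither was called (edgeR adjusted p = 0.0988 and 0.178). Their log2 fold changes of -0.16 and -0.12 were inside the fold limit. *Cacna2d2* went from 34.8 to 38.2 CPM without a call.

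**Figure D4:**
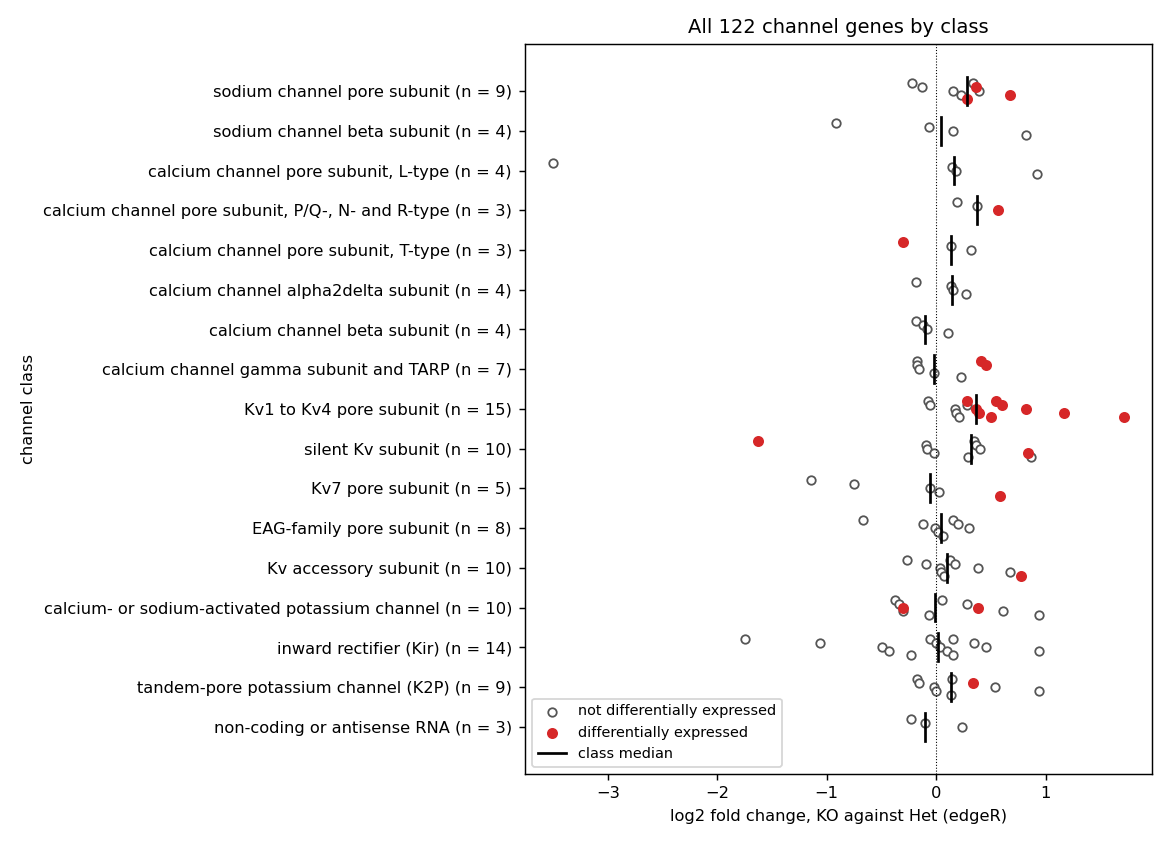
Log2 fold change of KO against Het for each of the 122 channel genes, in rows by class (red, differentially expressed; open, not called; bar, class median; dotted line, no difference). The Kv1 to Kv4 row holds 9 of the 23 called genes, all right of 0, with a median of 0.36, and the inward rectifier row holds none among 14.

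In the other potassium channels calls were few. Of 10 calcium- or sodium-activated channels, *Kcnn2* rose from 2.57 ± 0.11 to 3.36 ± 0.16 CPM (edgeR adjusted p = 0.0474) and lost the call in all 6 fits with 1 library left out, while *Kcnn1* was at 21.4 CPM in WT, at 22.3, 21.7 and 20.5 CPM in Het and at 18.3, 16.9 and 17.1 CPM in KO. Both code for small-conductance channels that calcium opens. The log2 fold change of *Kcnn1* was -0.30 ± 0.054 (edgeR adjusted p = 0.0209), and its adjusted p was 0.0897 without Het2, 0.0523 without Het3 and 0.0826 without KO2. Of 9 tandem-pore genes, which give the leak current, *Kcnk2* rose from 9.10 ± 0.79 to 11.5 ± 0.35 CPM (edgeR adjusted p = 0.0438), a call lost in all 6 of those fits. *Kcnk1* had an adjusted p of 0.0419 but a log2 fold change of -0.17, inside the fold limit, and *Cacng7* one of 0.23 (adjusted p = 0.037). None of the 14 inward rectifiers and none of the 3 non-coding RNAs was called, and *Kcnmb4os2* went from 3.37 to 2.88 CPM.

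A few channels at low levels moved with single libraries. The skeletal muscle channel *Cacna1s* had 165 counts in Het1 and 0 to 9 in the other 6 libraries. *Scn4a* had 113 counts in Het1 against 19 to 55 elsewhere, and *Cacng1* had 116 against 23 to 47. All 3 were highest in Het1, as were 11 of 12 skeletal muscle markers, whose summed level was 313 CPM in Het1 and 8.88 to 11.6 CPM elsewhere, with no gene of the list called. None of the 3 channels was called by edgeR (log2 fold changes of -3.50, -0.13 and -0.18), though DESeq2 called *Cacna1s*. Without Het1 *Scn4a* stood at 0.81 and *Cacng1* at 0.67, likewise not called. *Cacnb1*, which muscle shares with other tissues, was near level (58.1 ± 1.7 CPM in Het, 54.7 ± 5.9 CPM in KO). Of the pigmented cell markers, the summed level was 524 CPM in Het1 and 20.1 to 59.9 CPM in the other libraries, and none of the 7 tested was called. The muscle channels *Cacng6* and *Kcna7*, with too few counts to enter the 122 genes, had 1 to 16 and 0 to 7 counts per library, and *Kcna7* was highest in KO1, not Het1.

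*Kcnj8* and *Kcnj13* were low in KO1 and KO2. *Kcnj8*, which codes for the pore of a channel of pericytes, had 78 counts in WT, 85, 10 and 130 in Het and 5, 1 and 51 in KO. *Kcnj13*, known from the pigment epithelium, had 75 counts in WT, 86, 60 and 99 in Het and 10, 7 and 140 in KO. KO1 and KO2 held few counts of either, and KO3 lay within the Het range for *Kcnj8* and above it for *Kcnj13*. The summed erythroid markers followed the same libraries, with 37.1 CPM in KO1 and 24.5 CPM in KO2 and between 189 and 531 CPM in the other 5, and none of the 8 was called. The summed pigmented cell markers were instead far highest in Het1, at 524 CPM, where *Kcnj13* did not stand out. They were at 26.7, 20.1 and 55.6 CPM in KO1, KO2 and KO3, beside 30.8 CPM in WT and 28.7 and 59.9 CPM in Het2 and Het3. Of the 10 vessel and pericyte markers 1 rose and 2 fell, with a median log2 fold change of -0.78, while their summed level went the other way, with 493 to 522 CPM in Het and 568 to 661 CPM in KO. *Kcnj8* and *Kcnj13* were not called (adjusted p = 0.379 and 0.777), but without KO3 *Kcnj13* had a log2 fold change of -3.09 (adjusted p = 0.0093). *Kcnn4*, known from blood cells, had 5 to 23 counts per library with the most in KO1, and *Kcnj10*, the glial rectifier, was above Het in every KO library (17.1, 18.1 and 12.8 CPM against 12.6, 10.8 and 11.7 CPM) without a call (adjusted p = 0.0807; 0.0163 without KO3). The part of these cells in the channel counts was not tested.

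**Figure D5:**
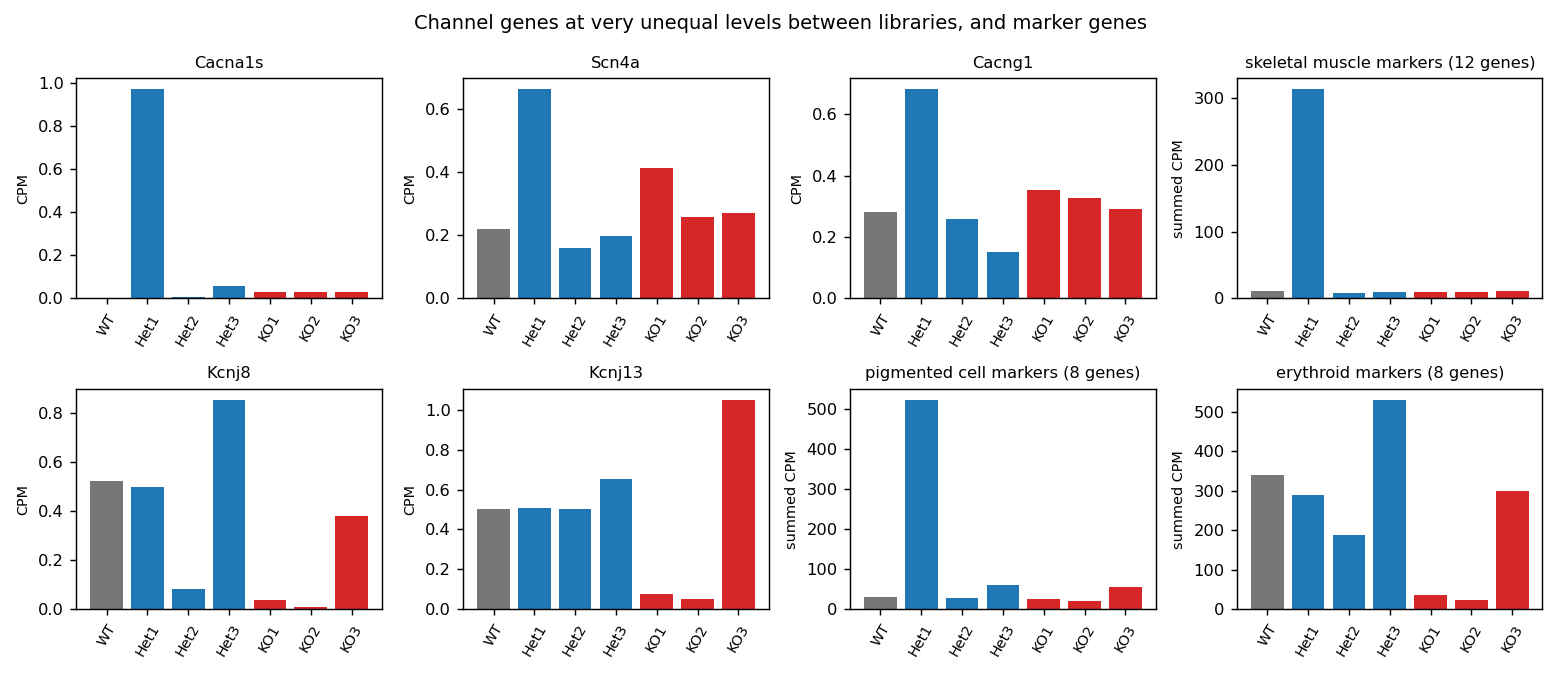
CPM in each library for *Cacna1s*, *Scn4a*, *Cacng1*, *Kcnj8* and *Kcnj13*, with the summed CPM of skeletal muscle, pigmented cell and erythroid markers (each bar is 1 library; WT grey, Het blue, KO red). Het1 stands out in the 3 muscle channels and in the muscle and pigmented cell markers, at 313 and 524 CPM, and KO1 and KO2 are low in *Kcnj8*, *Kcnj13* and the erythroid markers.

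A partner list of 49 genes held genes whose products bind, anchor or work beside these channels. It also held related channels, which are the Hcn, Cnga and Cngb genes, and the sodium leak channel *Nalcn* with its own subunits. Of the list, 45 were tested: 13 rose and 1 fell, beside 4.01% and 3.21% of all genes. The median log2 fold change was 0.11. The cyclic nucleotide-gated channel genes of photoreceptors were among those that rose, with log2 fold changes of 2.02 for *Cngb1*, 0.68 for *Cnga3* and 0.63 for *Cngb3* (edgeR adjusted p = 0.0401, 0.0175 and 0.0203). *Rims1* and *Rimbp2*, which tether calcium channels at the release site, rose by 0.71 and 0.50 on the log2 scale, and *Dpp10*, a partner of Kv4 channels, by 0.56. The sulfonylurea receptor *Abcc8* had a log2 fold change of 0.74, the Kv1-associated *Adam22* 0.53, and the sodium leak channel genes *Unc80*, *Fam155a* and *Nalcn* 0.48, 0.36 and 0.29. *Sptbn4* and *Fgf11* completed the 13, at 0.36 and 0.28. *Cntn2*, a cell adhesion protein that gathers Kv1 channels along axons, fell: it was at 461 CPM in WT, at 422, 463 and 476 CPM in Het and at 167, 258 and 204 CPM in KO, a log2 fold change of -1.11 ± 0.15 (edgeR adjusted p = 0.010). Of the list, 14 were called with all libraries, 2 without Het2, 5 without Het3 and 6 without KO2. These are totals per gene, and splice forms of the channels were not analysed here.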

How the data were processed

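The deposited table holds counts per gene, which the authors made by aligning reads with STAR within rMATS-turbo (GRCm38) and counting them with featureCounts, without normalization. The treatment of strand and of multi-mapping reads is not given in the sources used here, so paralogs and genes with an antisense partner are uncertain: an exon of 38 of the 122 channel genes overlaps a gene on the opposite strand and of 3 one on the same strand, and 8 of the 23 called genes are among these. There were 0 columns of other samples. For RNA extraction the labels name TRIzol and the paper's methods a column kit, and which was used for which library is not clear.

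All 7 libraries entered 1 fit with edgeR 4.0.16 in R 4.3.3 (filterByExpr, TMM factors 0.988 to 1.03, glmQLFit and glmQLFTest) with 1 mean for each genotype, from which KO was set against Het. The biological coefficient of variation was 21.5%. Benjamini-Hochberg adjustment ran over 20019 genes. An SE is the log2 fold change over the square root of F. The script was tested on simulated data. Levels per kilobase use exon length from a GENCODE annotation of GRCm38, and promoters come from RefSeq.

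Named genes were those called, the highest level of each class, and photoreceptor, muscle, axonal and other-cell sets; the results for 3 of them are not reported here. The members, sets and marker lists were chosen with earlier results of these data known. The 15 alternatives were DESeq2 1.42.0, RLE and upper-quartile scaling, no filter, a minimum of 10 counts in all libraries, a fit without WT, the same with the replicate number as a block, adjusted p alone, glmTreat, and 6 fits that each lacked 1 Het or KO library. With 3 pools a group, precision depends on the spread between pools, and for genes with few counts also on depth.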

Additional observations from a re-analysis of the deposited data

How the results depend on the processing

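Between 20 and 31 of the 122 channel genes were called under DESeq2's Wald test (31; 26 higher and 5 lower), RLE or upper-quartile scaling, no filter, a minimum of 10 counts in all libraries, a fit without WT, and adjusted p alone. DESeq2 called all 23 genes again. Its further calls included *Cacna1s* as lower, which had 165 counts in Het1 and 0 to 9 in the other libraries. With glmTreat, which tests against the fold limit itself, 2 channel genes were called (*Kcna1* higher and *Kcng4* lower, so 1 in each direction). It also called 2 genes of the partner list, and 217 of all genes, against 1445. With adjusted p alone, 2221 of all genes were called. With 1 library left out, 6 to 26 channel genes were called, 4 to 20 of them higher and 2 to 6 lower. The same fits called 2 to 13 genes of the partner list and 386 to 1674 of all genes. The replicate number as a block gave 20 channel genes and 1268 genes in all, but same-numbered Het and KO libraries did not deviate together (correlations of -0.20, 0.16 and -0.074), and no Het library correlated best with the KO library of its number, so the numbers were not taken as pairs. Of 652 values of the 44 named genes under the alternatives, 554 kept their direction and call, 86 lost the call, 5 gained it and 7 turned sign, none of these last in a called gene. The sign turned for *Scn4a* and *Cacng1* under the block (0.12 and 0.0755) and without Het1, for *Cacnb2* and *Kcne1l* without KO1, and for *Kcnj13* without KO2. With 1 library left out the log2 fold change ranged from -0.46 to 0.81 for *Scn4a*, from -0.55 to 0.67 for *Cacng1*, from -0.77 to 0.081 for *Cacnb2*, from -0.039 to 0.11 for *Kcne1l* and from -3.09 to 0.018 for *Kcnj13*. The cause was not tested.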

Other observations

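Of the 122 channel genes, the unreplicated WT library lay below all other 6 libraries for 30 that had counts in WT. It lay above them for 3 (*Kcnip4*, *Cacna2d1* and *Kcnf1*). *Cacna1s*, with 0 counts in WT and 1 to 165 in the other libraries, was left out of the 30. The share over all genes was not counted. *Kcnab1*, a Kv beta subunit, was at 7.57 CPM in WT and at 11.9 to 15.3 CPM in the other libraries, and *Kcnip4* was at 5.78 CPM in WT against 3.60 to 4.86 CPM. These genes were singled out after their values were seen, and with 1 library no error can be given.

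The highest library was over 2 times the median of the other 6 for 18 channel genes. It was Het1 for 8 of them and KO1 for 7, and 3 of the 18 (*Kcna1*, *Kcna5* and *Kcnv2*) were among the called genes. Apart from these 3, *Kcnq5* and *Kcnj13*, even the highest library was under 1 CPM, a level at which libraries of a group varied more. The share over all genes was not counted.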
